A study of Drosophila melanogaster with 31 samples.

Results

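Wild-type embryos carrying an *atonal* (*ato*) GFP reporter were dissociated at timed stages and sorted by GFP, and the arrays described here are those of the cells that carried no GFP (GFP- cells), at the latest stage, t3, set against the stage before it, t2. They were chosen by sample title as all wild-type GFP- arrays of these stages, which gave 7 of the series' 31 arrays, 3 at t3 and 4 at t2. Both groups have the genotype labelled atoGFP.7;w118, in which 1 transgenic line drives GFP from an upstream fragment of *ato*, the proneural gene of the chordotonal sense organs. Eggs were laid for 1 h at 25C and matured at 18C before sorting, and the ages are given as 25C equivalents, 7.75 to 8.75 h after egg laying at t3 and 6.75 to 7.75 h at t2. The GFP- cells are the rest of the embryo, so epidermis, nervous system, mesoderm, gut, blood and other tissues were hybridised together, and *ato*-lineage cells that had not made enough GFP to be sorted out would be among them. Further arrays serve only to set the change in context, namely GFP+ cells at t3 and t2 (4 arrays each) and GFP- cells at t1, the stage before t2 (4 arrays, 5.75 to 6.75 h), all of the same genotype. Replicate 4 of t2 is titled GFP- but its source text says GFP+. It was kept under its title, and its *ato* level of 8.70 lay among the 8.55, 8.58 and 8.92 of the other t2 GFP- arrays.

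Around these stages the germ band retracts, neuroblasts and sense organ precursors segregate, and organs begin to differentiate. In the hours that follow, epidermis and trachea make cuticle and the septate junctions that seal epithelia, myoblasts fuse, macrophages lay down basement membrane, and a pulse of the moulting hormone ecdysone spans mid-embryogenesis. The values are RMA log2 intensities, one for each probe set (the group of probes designed against a transcript), so a difference of values is a log2 fold change. A gene passed the test when a probe set naming it alone changed by at least 1.5-fold with a limma adjusted p of at most 0.01, and the value given for a gene comes from whichever of its probe sets was brightest on average over all arrays. A level near 4 is at the lower end of this scale, whose median per array lay between 4.71 and 4.84. In such bulk samples, fewer cells of a type and less RNA per cell cannot be told apart.

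The arrays of each group resembled each other more than those of the other group. Correlations over all probe sets were between 0.994 and 0.998 within t3 and between 0.997 and 0.998 within t2, against 0.956 to 0.972 between the groups. The 3 t3 arrays were not equally far from t2. Over genes that passed when an array was left out of choosing them, t3 replicate 3 showed 86.3% of the change of the other t3 arrays, and replicate 1 110%. Replicate 3 is therefore the t3 array nearest to t2, and values without it or for each array are given for some of the results. Any other difference between the collections of the 2 stages cannot be told apart from age.

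Of 11982 genes, 1944 were higher and 1381 lower at t3, which is 16.2% and 11.5% of all genes tested (12 genes had probe sets that passed in both directions). The counts given below for gene lists are to be read beside these shares. Groups that did not overlap, without any test, were found for 25.3% of genes with t3 above and 31.1% with t3 below. The rises were larger than the falls. The median log2 change was 1.10 among the genes whose main probe set rose and -0.91 among those whose main probe set fell, and 337 genes rose and 35 fell by at least 4-fold. In 28 genes the mean stood under 5 at t2 and above 8 at t3, and in 1, *dmrt11E*, the reverse held. The median change over all genes was -0.09. Means are given with the SD over 3 arrays at t3 and 4 at t2, and changes with the SE of the fit. Leaving out t3 replicate 3 gave 2033 higher and 1415 lower genes. Probe sets with no gene name added 187 that rose and 143 that fell.

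**Figure D1:**
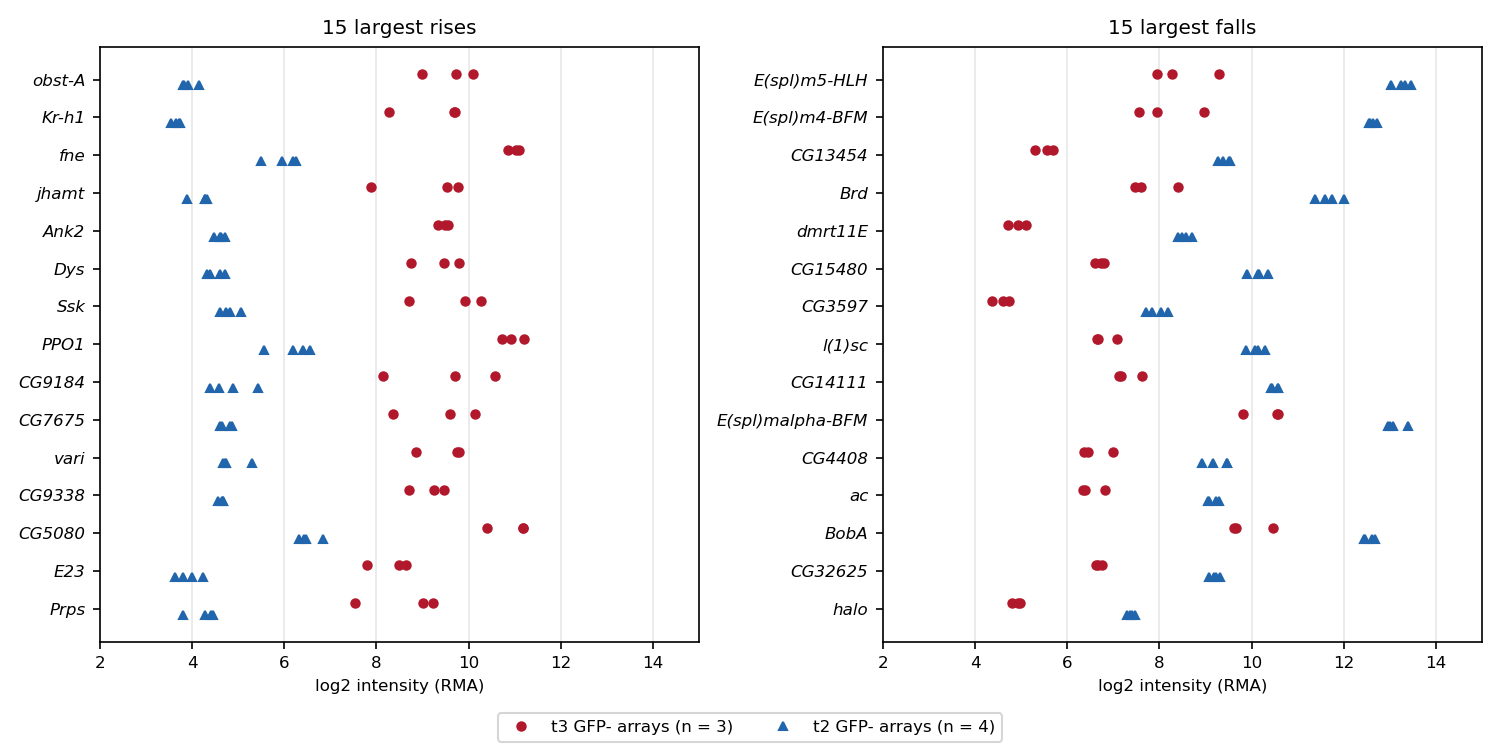
Log2 intensity (x axis) of the 15 genes with the largest rises (left panel) and the 15 with the largest falls (right panel) in each GFP- array, t3 as circles above t2 as triangles. The groups are separate in all 30 genes, and in most of them 1 t3 array, replicate 3, lies nearest to the t2 values.

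The 15 largest rises were led by genes of cuticle, hormone signalling, neurons and epithelial junctions. *obst-A*, a chitin-binding protein needed for cuticle assembly, had values of 10.09, 9.72 and 8.99 at t3, against 3.83, 4.15, 3.92 and 3.80 at t2. This is a log2 change of 5.68 ± 0.48 (SE), or 51.2-fold (limma, adjusted p = 1.94e-11), out of levels near the bottom of the scale. *Kr-h1*, a zinc-finger transcription factor of the ecdysone and juvenile hormone pathways, stood at 9.68, 9.70 and 8.28 at t3, against 3.74, 3.64, 3.55 and 3.72 at t2, a change of 5.56 ± 0.31 (adjusted p = 4.35e-15). *jhamt*, which encodes the methyltransferase of juvenile hormone synthesis, had 9.77, 9.54 and 7.87 at t3, against 4.28, 4.27, 3.88 and 4.31 at t2. In each of these the lowest t3 value was that of replicate 3, and it lay far above every t2 value. *fne*, an ELAV-family RNA-binding protein of neurons, had 11.02, 11.10 and 10.85 at t3, against 5.96, 6.26, 5.50 and 6.19 at t2, and here all t3 arrays were close together.

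Other genes among the 15 included *Ssk*, a membrane protein of smooth septate junctions (4.82 ± 0.28, SE), *vari*, a scaffold protein of pleated septate junctions (4.61 ± 0.38), *PPO1*, a prophenoloxidase of crystal cells (4.77 ± 0.30), *E23*, an ecdysone-induced ABC transporter (4.40 ± 0.30), and *Prps*, which makes phosphoribosyl pyrophosphate (4.35 ± 0.30). *CG9184*, *CG7675*, *CG9338* and *CG5080*, with no role given here, changed by 4.65, 4.63, 4.50 and 4.40. *Ank2* and *Dys*, encoding an ankyrin and Dystrophin, changed by 4.85 and 4.83 at their main probe sets. Their other probe sets disagreed, since those of *Ank2* ranged from -0.13 to 4.63 and those of *Dys* from -0.12 to 2.44, so only some transcripts or probes of these genes showed the rise.

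The 15 largest falls were led by targets of Notch signalling. *E(spl)m5-HLH*, a bHLH repressor that Notch switches on in cells kept from the neural fate, had 7.95, 8.27 and 9.29 at t3, against 13.32, 13.47, 13.03 and 13.24 at t2. The fall of 4.76 ± 0.21 (SE) on the log2 scale is 27.1-fold (adjusted p = 2.13e-17). *E(spl)m4-BFM*, a Bearded-family protein of the same gene complex, had 7.55, 7.95 and 8.97 at t3, against 12.55, 12.73, 12.57 and 12.63 at t2. *Brd*, the founder of that family, which limits Delta signalling through the ubiquitin ligase Neuralized, had 7.48, 7.61 and 8.41 at t3, against 11.58, 12.01, 11.39 and 11.74 at t2. All 3 were among the strong signals of the array at t2. *E(spl)malpha-BFM* and *BobA*, of the same family, changed by -2.79 ± 0.22 and -2.64 ± 0.15.

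The proneural genes of the achaete-scute complex fell with them. *l(1)sc*, the complex's main gene in neuroblasts, had 6.65, 6.68 and 7.08 at t3, against 9.89, 10.09, 10.29 and 10.14 at t2 (change -3.30 ± 0.13, adjusted p = 6.63e-18). *ac* had 6.34, 6.39 and 6.82 at t3, against 9.05, 9.07, 9.29 and 9.22 at t2 (change -2.64 ± 0.17). *dmrt11E*, of the DM-domain transcription factor family, had 4.72, 4.93 and 5.10 at t3, against 8.71, 8.50, 8.40 and 8.57 at t2. The t3 levels of *dmrt11E* lie at the lower end of the scale, as do those of *CG3597* (4.57 ± 0.19 at t3 and 7.94 ± 0.21 at t2, SD) and *halo* (4.91 ± 0.09 at t3 and 7.39 ± 0.07 at t2), a gene of lipid droplet transport in the early embryo. *CG13454*, *CG15480*, *CG14111*, *CG4408* and *CG32625*, with no role given here, changed by -3.91, -3.42, -3.20, -2.65 and -2.51.

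**Figure D2:**
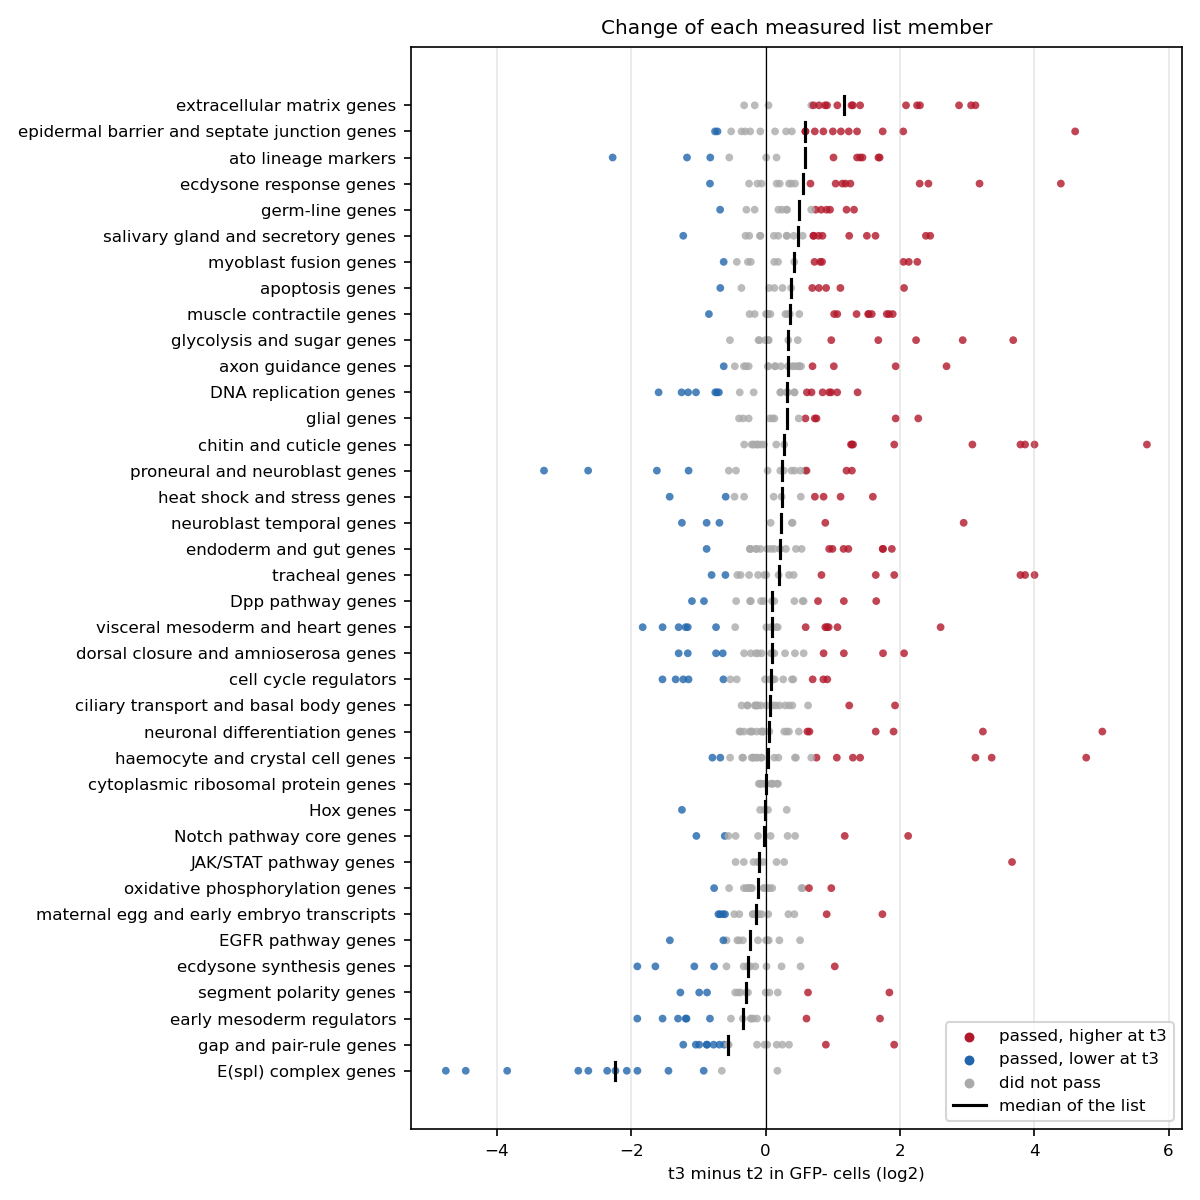
Log2 change from t2 to t3 in GFP- cells (x axis, t3 minus t2) of every measured member of the 38 gene lists (rows, ordered by their median, drawn as a black bar), each at its brightest probe set. Points are red where that probe set passed and rose, blue where it passed and fell, and grey otherwise; E(spl) complex genes lie at the low end and extracellular matrix genes at the high end.

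Notch signalling selects single precursors out of fields of equivalent cells. Delta on the precursor activates Notch in its neighbours, where the E(spl) repressors hold the proneural genes off. Of 13 measured genes of the E(spl) and Brd complexes, 11 fell and none rose, with a median change of -2.23 beside -0.09 over all genes (11.5% of all genes fell). The exceptions were *E(spl)m3-HLH*, at -0.65 with an adjusted p of 0.0201, and *E(spl)m6-BFM*, at 5.78 ± 0.17 at t3 and 5.61 ± 0.62 at t2 (SD), a low level at both stages. Other bHLH repressors fell by less than *E(spl)m5-HLH*, namely *E(spl)m7-HLH* (-2.36 ± 0.18), *E(spl)mdelta-HLH* (-1.91 ± 0.18) and *E(spl)mbeta-HLH* (-1.45 ± 0.17). Of the Brd complex, *Ocho* changed by -2.07 ± 0.11 and *Tom* by -0.92 ± 0.07. The list's median in single arrays, relative to the t2 mean, was -2.47, -2.33 and -1.90 at t3 and between -0.22 and 0.22 at t2. Between t1 and t2 the median change of the list had been 0.34, and 1 of the 13 means was lower at t2. By the test of the difference between the steps, the later change was the lower one in 12 of the 13 genes (17% of all genes). For *E(spl)m5-HLH* the means were 13.01 at t1, 13.27 at t2 and 8.51 at t3.

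Of 10 measured core genes of the pathway, 2 rose and 3 fell. With so few genes the 20% that rose is near the 16.2% of all genes, and the list's median per array overlapped between the stages. *fng*, the glycosyltransferase that tunes Notch's response to its ligands, had 10.93, 10.69 and 10.65 at t3, against 8.44, 8.62, 8.76 and 8.70 at t2 (change 2.12 ± 0.20, adjusted p = 3.42e-10). The ligand gene *Delta* had 11.36 ± 0.03 at t3 and 11.97 ± 0.03 at t2 (SD), a fall of 0.61 ± 0.05 (SE) that was short of 1.5-fold after cyclic loess (-0.50), while its other probe set changed by -0.97 and passed, and *O-fut1*, which adds the fucose that Fringe extends, changed by -1.03 ± 0.14. *spdo*, which Notch signalling needs in asymmetric divisions, changed by 1.18 ± 0.16. The third fall, of the co-activator gene *mam*, came from its dimmer probe set (-0.69), while its main one stood at 8.71 ± 0.06 at t3 and 8.63 ± 0.08 at t2.

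Of 16 proneural and neuroblast genes, 3 rose and 4 fell (median 0.25), 18.8% and 25%, beside 16.2% and 11.5% of all genes. The share that rose is near that of all genes, and the list's median per array overlapped between the stages. Those that fell were *l(1)sc*, *ac*, *sc* (-1.62 ± 0.16) and *ind*, a column gene of the early neuroectoderm (-1.15 ± 0.16). Those that rose were *dpn*, a bHLH repressor that maintains neuroblasts, with 10.20, 10.32 and 10.33 at t3, against 9.07, 9.12, 8.83 and 8.97 at t2 (change 1.29 ± 0.16), and the Snail-family genes *esg* (1.21 ± 0.13) and *sna* (0.61 ± 0.14). *ase*, *mira*, *insc* and *pros*, of the same list, changed by 0.39, 0.43, 0.52 and 0.22 and did not pass. With cyclic loess or centring on ribosomal protein genes, 5 members of this list rose in place of 3. The rise of *sna* fell short of 1.5-fold without t2 replicate 1 (0.58), t2 replicate 3 (0.55) or t3 replicate 3 (0.51).

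Neuroblasts express a fixed order of transcription factors, Hunchback, Krüppel, Pdm and then Castor. The last of them, *cas*, had 9.95, 10.21 and 10.35 at t3, against 7.09, 7.45, 7.12 and 7.23 at t2, a rise of 2.95 ± 0.24 (SE) or 7.72-fold (adjusted p = 1.50e-11). The earliest, *hb* and *Kr*, fell by 0.69 ± 0.16 and 0.88 ± 0.14, the fall of *hb* being short of 1.5-fold without t3 replicate 1 (-0.58). *pdm2* and *nub*, the Pdm genes, stood at 9.61 ± 0.21 at t3 and 9.20 ± 0.05 at t2 and 10.62 ± 0.06 at t3 and 10.54 ± 0.15 at t2 and did not pass, and *grh*, which follows *cas* in some lineages and also serves the epidermis, changed by 0.39 without passing. In all, 2 of 8 temporal genes rose, the other being *svp* (0.89 ± 0.19), and 3 fell. *Kr* and *hb* are also expressed outside the nervous system, and *Antp*, listed here for its part in late neuroblasts, changed by -1.24 ± 0.09 at 1 probe set and by -0.07 and 0.10 at its others. *chinmo*, a zinc-finger gene of newborn neurons that is also a JAK/STAT target, rose by 3.67 ± 0.17 (adjusted p = 8.00e-17) and was the only one of 9 JAK/STAT genes measured to pass.

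Of 21 genes of neuronal differentiation, 6 rose and none fell (28.6%, beside 16.2% of all genes), with a median of 0.06 that overlapped between the stages by array. Besides *fne*, the risers were the transcription factor genes *onecut*, with 7.39, 7.61 and 7.22 at t3, against 4.10, 4.50, 3.71 and 4.37 at t2, and *jim* (1.64 ± 0.12), the amyloid precursor-like gene *Appl* (1.91 ± 0.19), and *Gad1* and *ChAT*, of transmitter synthesis, whose t3 means of 4.02 and 4.17 are still at the bottom of the scale. The change of *ChAT* did not pass without t3 replicate 1 (0.55) or t3 replicate 2 (0.54). Pan-neuronal *elav* was already high and stood at 11.60 ± 0.14 at t3 and 11.10 ± 0.22 at t2 (SD; change 0.50, not past 1.5-fold). For 11 of the 21, the synaptic gene *Snap25* and the sodium channel gene *para* among them, both means lay under 5. Leaving out probe sets with a mean under 5 kept 2 of the 6 calls. Of 12 glial genes, 5 rose and none fell (median 0.31; 16.2% of all genes rose), among them *repo*, the glial homeodomain gene, with 9.90, 10.13 and 10.01 at t3, against 8.05, 8.20, 7.92 and 8.14 at t2, and *wrapper*, an immunoglobulin protein of midline glia, with 7.76, 7.63 and 7.17 at t3, against 5.27, 5.13, 5.18 and 5.41 at t2. *gcm*, which acts before *repo* in most glia, stood at 10.95 ± 0.23 at t3 and 11.29 ± 0.10 at t2 and did not pass. Of 21 axon guidance genes, 6 rose and 2 fell (1 of them, *PlexB*, passed in both directions at different probe sets). *beat-Ia*, a secreted protein of motor axons, rose by 2.69 ± 0.19 and *Sema1a* by 1.94 ± 0.25.

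The GFP- cells also held transcripts of genes that mark the *ato* lineage, the cells the sort was meant to remove. *ato* itself had 5.98, 6.32 and 6.94 at t3, against 8.55, 8.58, 8.92 and 8.70 at t2, a fall of 2.28 ± 0.17 (adjusted p = 2.30e-12), with replicate 3 nearest to t2. Of 12 markers of that lineage, 7 rose and 3 fell (58.3% and 25%, median 0.59), beside 16.2% and 11.5% of all genes. *cpo* had 10.83, 10.77 and 10.82 at t3, against 9.08, 8.97, 9.32 and 9.06 at t2 (change 1.70 ± 0.22), and *B-H1*, *ss*, *Rfx* and *dac* rose by 1.68 ± 0.18, 1.44 ± 0.21, 1.41 ± 0.23 and 1.36 ± 0.18. *toy* is counted as a rise through its 2 dimmer probe sets (1.40 and 0.66), while its main one changed by -0.54 without passing. The early genes *phyl* and *nvy* fell with *ato* (-1.17 ± 0.13 and -0.82 ± 0.15), and *sens* and *cato* changed by 0.16 and 0.01. None of the 12 was at the bottom of the scale in t3 GFP- cells, where their means ran between 6.13 and 10.8, and all 12 were lower there than in GFP+ cells of t3 (11 of 12 at t2). The log2 of their summed intensity lay between 12.17 and 12.47 in t3 GFP- arrays and between 12.28 and 12.36 in t2 GFP- arrays, against 12.98 to 14.10 and 14.52 to 14.88 in GFP+ arrays of t3 and t2. Several of these genes are also expressed outside the lineage. Whether cells of the lineage were left among the GFP- cells, and what part they had in the neuronal results, was not tested.

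**Figure D3:**
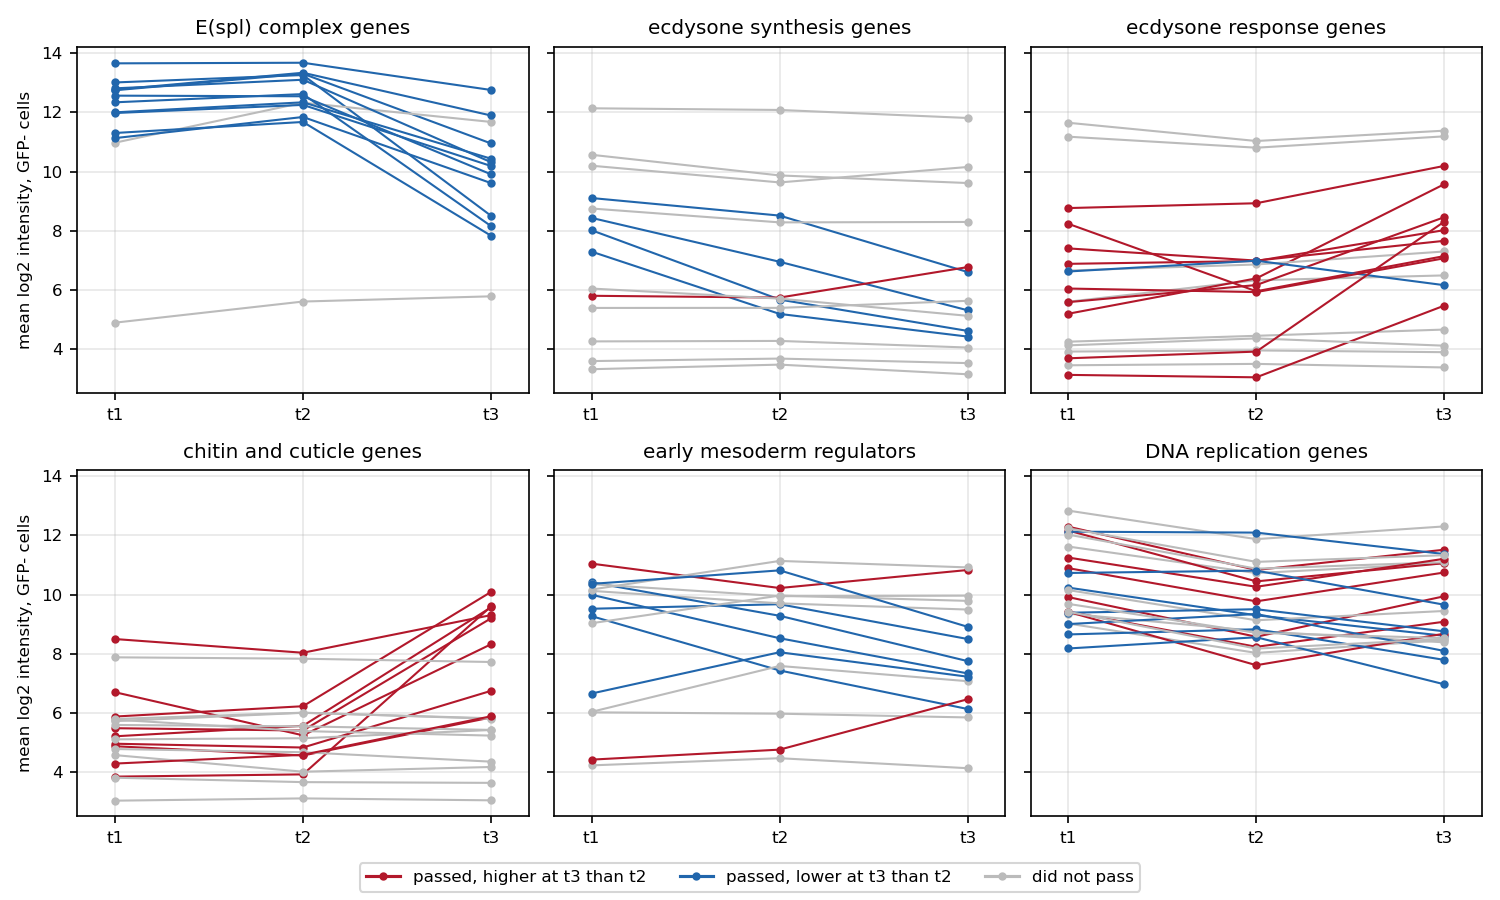
Mean log2 intensity in GFP- cells at t1 (n = 4), t2 (n = 4) and t3 (n = 3) for each measured member of 6 lists, in red and blue for genes whose plotted probe set passed upward or downward from t2 to t3. Most E(spl) genes turn down after t2, most chitin genes that rise are flat until t2, the 4 ecdysone synthesis genes that fall at t3 were already falling from t1, and most DNA replication genes dip at t2.

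Ecdysone is made by a chain of cytochrome P450 enzymes, the Halloween genes, and acts through the receptor pair EcR and Usp on a cascade of nuclear receptors and effectors. Of 14 genes of synthesis and metabolism, 4 fell, 1 rose and 9 did not pass (median -0.26; 11.5% of all genes fell). Those that fell were all Halloween genes: *dib* had 6.45, 6.63 and 6.74 at t3, against 8.37, 8.06, 8.83 and 8.80 at t2 (change -1.91 ± 0.15, adjusted p = 2.41e-12), *sad* had 5.11, 5.44 and 5.38 at t3, against 6.92, 6.85, 6.92 and 7.11 at t2, and *phtm* and *spo* changed by -1.06 ± 0.14 and -0.77 ± 0.13 to t3 means of 4.61 and 4.42, near the bottom of the scale. They had been higher still at t1, with *phtm* at 8.02, 5.67 and 4.61 at t1, t2 and t3. The 1 that rose, *shd*, encodes the last enzyme, which makes the active 20-hydroxyecdysone in target tissues, and changed by 1.03 ± 0.18.

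Of 18 ecdysone response genes, 10 rose and 1 fell (median 0.55; 16.2% of all genes rose). *E23* had 8.64, 8.49 and 7.80 at t3, against 4.24, 3.99, 3.81 and 3.62 at t2. *Hr4*, a nuclear receptor of the cascade, had 9.96, 9.75 and 9.02 at t3, against 6.39, 6.57, 6.39 and 6.22 at t2 (change 3.19 ± 0.24, adjusted p = 2.80e-12), and *Hr3*, another, had 5.89, 5.52 and 5.00 at t3, against 3.01, 3.16, 2.96 and 3.06 at t2. *ImpE1*, an ecdysone-inducible gene of epithelia, rose by 2.29 ± 0.25, and the receptor genes *EcR* and *usp* by 1.04 ± 0.14 and 0.67 ± 0.11. In each of these genes all t3 arrays were above all t2 arrays. The list's median per array was 0.73, 0.56 and 0.30 at t3 and between -0.04 and 0.03 at t2. *Hr4* and *ImpE1* each have other, dimmer probe sets whose changes did not pass, and *br*, the Broad transcription factor gene, passed at 1 of its 5 probe sets (1.76). *Eip93F* and *Hr38*, later members of the cascade, stood at 3.38 ± 0.06 at t3 and 3.50 ± 0.10 at t2 and 4.12 ± 0.08 at t3 and 4.36 ± 0.16 at t2. *ImpE3* fell by 0.83 ± 0.11.

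Cuticle is built from chitin made at the plasma membrane and shaped by secreted enzymes and binding proteins. Of 19 chitin and cuticle genes, 9 rose (47.4%, beside 16.2% of all genes) and none fell (median 0.28). Genes of synthesis and early assembly were among the risers. Chitin synthase *kkv* had 10.11, 9.63 and 8.97 at t3, against 5.26, 5.79, 5.49 and 5.73 at t2 (change 4.00 ± 0.28, adjusted p = 2.97e-13). The chitin deacetylases *serp* and *verm* had 10.70, 10.35 and 9.22 at t3, against 6.38, 6.15, 6.21 and 6.17 at t2 and 9.71, 9.60 and 8.29 at t3, against 5.34, 5.39, 5.65 and 5.24 at t2. *Gasp*, a chitin-binding protein of the tracheal lumen, rose by 3.08 ± 0.61, *knk*, which organises chitin, by 1.92 ± 0.20, and *mmy*, which makes the sugar nucleotide substrate, by 1.27 ± 0.15. The structural proteins of late cuticle did not pass: *Cpr49Ae*, *Cpr72Ec* and *TwdlT* had t3 means of 3.64, 4.35 and 4.17, near the bottom of the scale, and the tanning genes *Ddc* and *ple* changed by 0.28 and -0.06. By the test of the 2 steps, the signed change was higher from t2 to t3 than from t1 to t2 in 9 of the 19 and lower in none (22% and 17% of all genes). For *obst-A* the means were 3.85, 3.92 and 9.60 at t1, t2 and t3.

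Of 21 genes of septate junctions and the epidermal barrier, 13 rose and 2 fell (61.9% and 9.52%, median 0.59), beside 16.2% and 11.5% of all genes. Of these, 1 gene, *scrib*, was counted in both because its probe sets disagreed (-0.75 and 1.64). *vari* had 9.79, 9.74 and 8.85 at t3, against 4.67, 4.71, 5.30 and 4.74 at t2. *cora*, a FERM-domain protein of the junction, had 10.39, 10.02 and 9.95 at t3, against 8.40, 8.35, 8.27 and 8.47 at t2 (change 1.74 ± 0.17). *M6*, *Cont*, *sinu* and *Nrx-IV* rose by 2.05 ± 0.16, 1.24 ± 0.13, 1.12 ± 0.09 and 1.00 ± 0.10, most of them genes that were already strongly expressed at t2. *kune*, a claudin, fell by 0.72 ± 0.09, while the claudins *pck* and *sinu* stood at 12.18 ± 0.07 at t3 and 12.25 ± 0.13 at t2 and 11.97 ± 0.04 at t3 and 10.85 ± 0.03 at t2 (SD). Of 17 tracheal genes, 8 rose and 2 fell (47.1% and 11.8%), the share that fell being near that of all genes. The list's median was 0.45, 0.19 and 0.10 in t3 replicates 1, 2 and 3, and at most 0.03 at t2. Among the tracheal genes that rose, 4 (*kkv*, *serp*, *verm* and *knk*) are also on the chitin list. The FGF receptor *btl* and its ligand *bnl*, which guide branching, changed by -0.60 ± 0.16 and -0.80 ± 0.10. The call of *btl* was lost without t2 replicate 3 (-0.56), t2 replicate 4 (-0.55) or t3 replicate 1 (-0.51), and with either other scaling.

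Among the 38 lists, that of extracellular matrix held the highest share of genes that rose. Of its 18 genes, 15 rose (83.3%, beside 16.2% of all genes) and none fell, with a median change of 1.17. The paired genes of type IV collagen, *vkg* and *Col4a1*, had 8.98, 8.87 and 8.46 at t3, against 5.58, 5.85, 5.80 and 5.61 at t2 and 9.41, 8.98 and 9.03 at t3, against 6.33, 6.44, 6.15 and 6.11 at t2, changes of 3.06 ± 0.16 and 2.88 ± 0.17 (adjusted p = 7.94e-16 and 2.31e-14). *Plod*, the lysyl hydroxylase that modifies collagen, and *SPARC*, a collagen-binding protein, had 11.15, 11.26 and 10.98 at t3, against 8.87, 9.00, 8.73 and 8.72 at t2 and 8.82, 9.23 and 8.63 at t3, against 6.49, 6.64, 6.67 and 6.74 at t2. *Tig*, an integrin ligand, rose by 3.12 ± 0.21, and the laminin chains *LanA*, *LanB1* and *LanB2*, already abundant, by 1.28 ± 0.11, 1.07 ± 0.08 and 0.80 ± 0.07. *trol*, the perlecan gene, passed at 1 of its 8 probe sets (change 0.91), whereas its main probe set stood at 4.94 ± 0.12 at t3 and 5.26 ± 0.06 at t2. The median of the list in single arrays was 1.21, 1.23 and 1.05 at t3 and between -0.03 and 0.03 at t2, so that replicate 3 was again the lowest and still far apart.

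Blood cells make much of this matrix. Of 24 haemocyte and crystal cell genes, 7 rose and 2 fell (29.2% and 8.33%, median 0.04), beside 16.2% and 11.5% of all genes. The list's median per array overlapped between the stages, and for 7 members both means lay under 5. The crystal cell enzymes *PPO1* and *PPO2* had 11.20, 10.93 and 10.73 at t3, against 5.56, 6.18, 6.56 and 6.42 at t2 and 11.67, 11.30 and 11.13 at t3, against 7.67, 8.19, 8.05 and 8.10 at t2 (changes 4.77 ± 0.30 and 3.37 ± 0.27). *Pxn* and *Pvr* rose by 1.30 ± 0.14 and 1.06 ± 0.13. The scavenger receptors *crq* and *Sr-CI* fell by 0.67 ± 0.16 and 0.79 ± 0.19 (for *Sr-CI* not past the test without t3 replicate 1, at -0.65), *srp*, the GATA factor that specifies blood, changed by 0.45, and the larval markers *Hml*, *He*, *NimC1* and *eater* stood at 4.69, 3.34, 3.94 and 3.45 at t3, the bottom of the scale. By the test against GFP+ cells, the signed change was lower in GFP- cells in 9 of the 24 genes (3.23% of all genes) and higher in none. *Pxn*, *Tig*, *Glt* and *Ppn* are on both this list and that of the matrix, and all but *Ppn* rose, so the counts of the 2 lists are not separate.

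**Figure D4:**
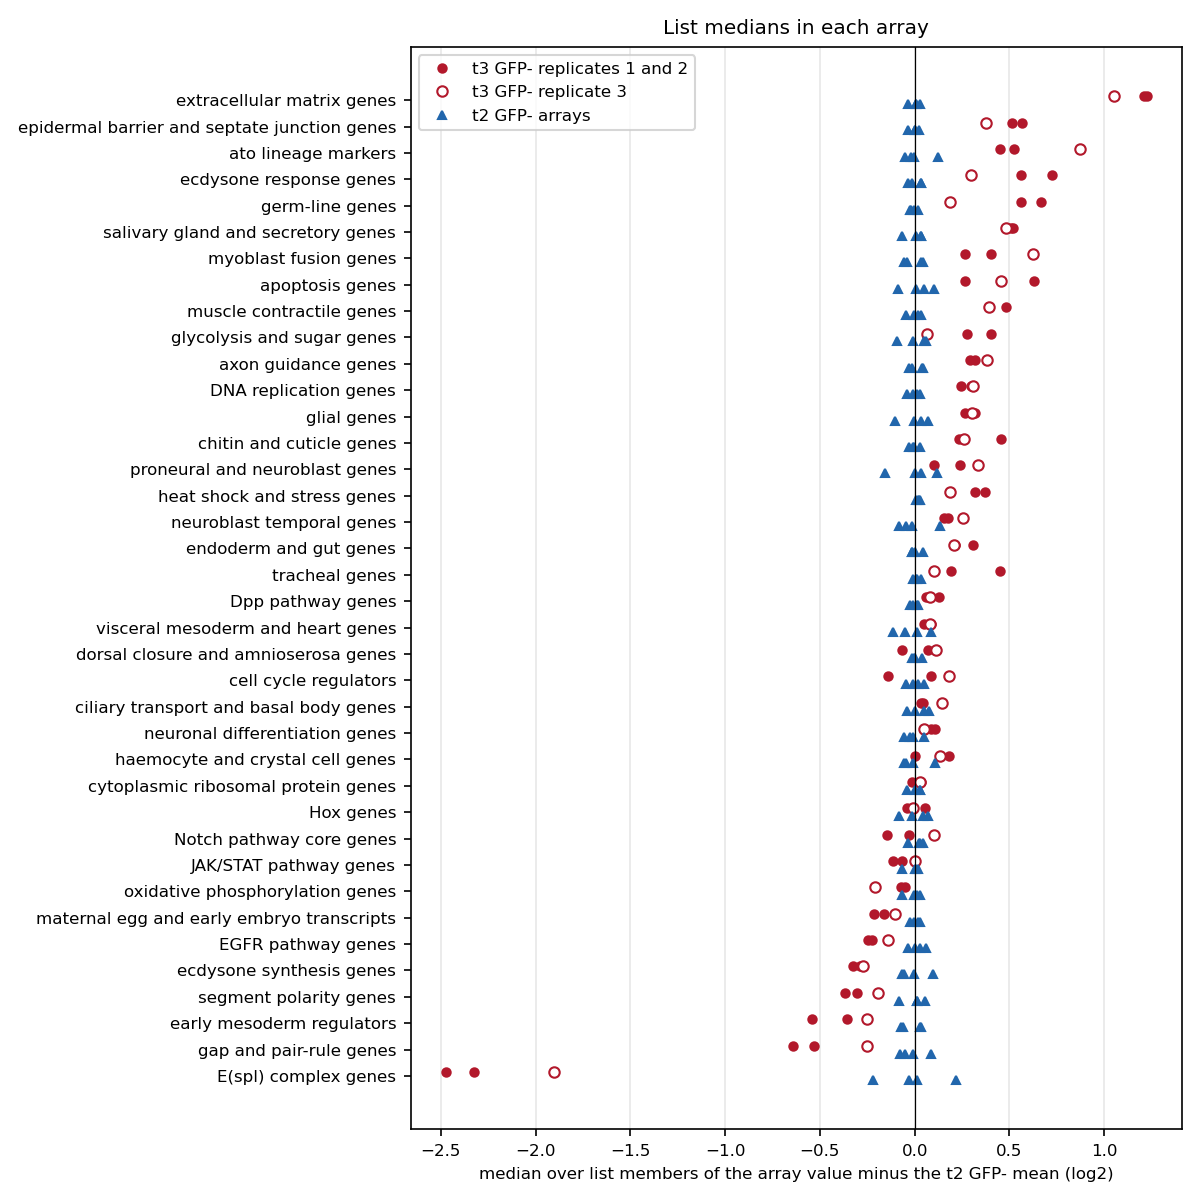
For each list (rows) and each GFP- array, the median over members of the array's value minus the t2 mean (x axis, log2), with t3 as circles above t2 as triangles and t3 replicate 3 drawn open. The t3 and t2 arrays overlap for 12 of the 38 lists, and replicate 3 is nearest to t2 in most of the lists that moved furthest.

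In the mesoderm, falls were more frequent among regulators of early patterning and rises among genes of muscle building. Of 15 early mesoderm regulators, 6 fell and 2 rose (40% and 13.3%, median -0.34), beside 11.5% and 16.2% of all genes. *Him*, which holds muscle precursors undifferentiated, had 8.59, 9.14 and 9.00 at t3, against 10.82, 11.02, 10.65 and 10.79 at t2 (change -1.91 ± 0.26, adjusted p = 2.42e-07). *twi*, the bHLH gene that specifies mesoderm, had 8.44, 8.37 and 8.69 at t3, against 9.53, 9.67, 9.61 and 9.89 at t2. The visceral mesoderm genes *bap* and *bin* changed by -1.53 ± 0.21 and -1.19 ± 0.21, *Six4* by -1.30 ± 0.17 and *nau*, the MyoD-like gene, by -0.83 ± 0.20. The muscle identity gene *lbl* rose by 1.70 ± 0.21. Of 13 myoblast fusion genes, 6 rose and 1 fell (46.2% and 7.69%). *rols*, an adaptor at the fusion site, had 10.13, 10.07 and 10.19 at t3, against 7.87, 7.88, 7.86 and 7.86 at t2, *blow* had 9.29, 9.60 and 9.73 at t3, against 7.60, 7.36, 7.43 and 7.55 at t2, and *Vrp1*, which acts on actin there, rose by 2.13 ± 0.14. Of 21 muscle contractile genes, 9 rose and 1 fell (42.9% and 4.76%). *sls*, the titin-like protein of the sarcomere, had 9.92, 10.47 and 10.32 at t3, against 8.40, 8.32, 8.51 and 8.50 at t2 (change 1.81 ± 0.18), and the myosin light chains *Mlc1* and *Mlc2* rose by 1.84 ± 0.16 and 1.58 ± 0.21, out of the bottom of the scale, with 6.34, 6.32 and 5.45 at t3, against 4.56, 4.11, 4.05 and 4.07 at t2 and 5.69, 5.34 and 4.20 at t3, against 3.50, 3.42, 3.60 and 3.47 at t2. With probe sets under a mean of 5 left out, 3 of the 9 rises were kept. Of 18 visceral mesoderm and heart genes, 6 rose and 6 fell (33.3% each), and the list's median per array overlapped between the stages. *Hand*, a bHLH gene of the heart, had 7.88, 7.75 and 7.11 at t3, against 4.61, 4.43, 5.80 and 5.05 at t2, and *jeb*, the ligand of Alk in visceral muscle founders, had 3.15, 3.41 and 3.23 at t3, against 5.20, 5.12, 5.03 and 5.01 at t2.

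The T-box genes *Doc1*, *Doc2* and *Doc3*, of the amnioserosa and dorsal mesoderm, changed together by -1.16 ± 0.19, -0.74 ± 0.16 and -1.29 ± 0.18. With them, 5 of 20 dorsal closure and amnioserosa genes fell (25%) and 4 rose (20%), beside 11.5% and 16.2% of all genes. The share that rose is near that of all genes, and the list's median per array overlapped between the stages. The largest rise was that of *egr*, the TNF ligand (2.06 ± 0.17), which also leads the apoptosis list. Of 11 apoptosis genes, 5 rose and 1 fell (45.5% and 9.09%, median 0.38). Among them were the caspases *Dredd* (1.11 ± 0.14) and *Dronc* (0.90 ± 0.13), their adaptor *Dark* (0.70 ± 0.08) and the activator *grim*, at 5.03 ± 0.10 at t3 and 4.24 ± 0.24 at t2. Of 22 endoderm and gut genes, 7 rose and 1 fell (31.8% and 4.55%, median 0.22). *GATAe*, the endodermal GATA factor, had 10.08, 9.74 and 9.34 at t3, against 7.76, 7.59, 8.12 and 7.89 at t2, and *byn*, the hindgut T-box gene, changed by 1.74 ± 0.20, while the digestive enzymes *alphaTry* and *Mal-A1* stayed at 4.37 ± 0.14 at t3 and 4.24 ± 0.06 at t2 and 3.62 ± 0.12 at t3 and 3.86 ± 0.07 at t2. Of 20 salivary gland and secretory genes, 9 rose and 1 fell (45% and 5%, median 0.49). The prolyl hydroxylases *PH4alphaSG1* and *PH4alphaSG2* had 8.14, 7.86 and 7.39 at t3, against 5.22, 5.12, 5.65 and 5.65 at t2 and 9.63, 9.24 and 9.18 at t3, against 6.73, 6.45, 7.36 and 7.04 at t2, and *SrpRalpha*, *TRAM* and *Sec61alpha*, of protein translocation into the endoplasmic reticulum, rose by 1.64 ± 0.13, 1.51 ± 0.09 and 1.25 ± 0.07. *Sec61beta* and *Sec13* changed by 0.19 and -0.08.

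Gap and pair-rule genes fell more often than they rose. Of 18 such genes, 8 fell and 2 rose (44.4% and 11.1%, median -0.55), beside 11.5% and 16.2% of all genes. Testing against a change of 1.5-fold gave 2 falls in place of 8. *hkb*, a terminal gap gene, had 8.69, 9.01 and 9.16 at t3, against 10.03, 10.10, 10.22 and 10.35 at t2 (change -1.22 ± 0.25), *gt* and *slp2* changed by -1.04 ± 0.11 and -0.99 ± 0.10, and *tll* rose by 1.92 ± 0.19. Of 13 segment polarity genes, 3 fell and 2 rose, *gsb* with -1.27 ± 0.15 and *Wnt6* with 1.84 ± 0.20 at the ends, while *en*, *hh* and *ci* changed by -0.37, -0.41 and -0.26. Of 5 Hox genes measured, *Antp* alone passed. Of 12 EGFR pathway genes, 2 fell, the chaperone gene *S* (Star) by 1.42 ± 0.11 and the inhibitor *aos* by 0.63 ± 0.10 (-0.54 and not past 1.5-fold after cyclic loess), and none rose. Of 15 Dpp pathway genes, 3 rose and 3 fell, with the related proteases *tok* (1.65 ± 0.11) and *tld* (-1.10 ± 0.14) on opposite sides. With t3 replicate 3 left out, 5 Dpp pathway genes rose. The shares that rose in the segment polarity and Dpp lists, 15.4% and 20%, were near the 16.2% of all genes. The shares that fell were 23.1% and 20% in these lists and 16.7% in the EGFR list. Maternal and early zygotic transcripts gave 2 rises and 4 falls among 19 genes, with *gcl* rising by 1.74 ± 0.07, but 1 fall was left with cyclic loess or centring on ribosomal protein genes, and 2 when t2 replicate 4 or t3 replicate 2 was left out. Of 14 germ-line genes, 7 rose and 1 fell (50% and 7.14%, median 0.50). *krimp* and *zpg* changed by 1.32 ± 0.16 and 1.21 ± 0.18, and *nanos*, the 1 that fell, by -0.68 ± 0.21. The call of *nanos* was lost when any 1 of the 7 arrays was left out (-0.75 to -0.58). The germ-line median was 0.67, 0.56 and 0.19 in t3 replicates 1, 2 and 3.

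Housekeeping and metabolic lists differed among themselves. Of 12 cytoplasmic ribosomal protein genes, 1 passed, *RpL3* at a minor probe set, and the changes ran from -0.10 to 0.18 (median 0.00). Of 18 genes of oxidative phosphorylation, 3 rose and 1 fell (16.7% and 5.56%, median -0.11), with 1 rise left when t3 replicate 2 was left out. The share that rose is near the 16.2% of all genes, and the list's median per array overlapped between the stages. Of 13 glycolysis and sugar genes, 6 rose and none passed as a fall, though 4 had the lower mean at t3 (median 0.34): *Hex-A*, hexokinase, had 8.85, 8.59 and 7.92 at t3, against 4.96, 4.76, 4.73 and 4.62 at t2, *Ald1*, aldolase, had 10.21, 10.07 and 9.54 at t3, against 6.80, 7.17, 6.80 and 7.24 at t2, and *Eno*, enolase, rose by 2.24 ± 0.13, whereas *Pfk*, *Pgk* and *Gapdh1* stood at 6.67 ± 0.04 at t3 and 6.68 ± 0.24 at t2, 7.89 ± 0.08 at t3 and 7.85 ± 0.19 at t2 and 6.93 ± 0.28 at t3 and 7.45 ± 0.18 at t2. The trehalase gene *Treh* rose by 1.68 ± 0.18. Of the glycolysis and sugar genes 46.2% rose, beside 16.2% of all genes. The median of the glycolysis and sugar list was 0.40, 0.28 and 0.064 in t3 replicates 1, 2 and 3, and at most 0.058 at t2. Of 11 heat shock and stress genes, 4 rose and 2 fell (36.4% and 18.2%), beside 16.2% and 11.5% of all genes. *GstE1* changed by 1.60 ± 0.22 and *Hsp68*, the inducible Hsp70-family gene, by -1.43 ± 0.20.

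Of 23 DNA replication genes, 7 rose and 7 fell (30.4% each, median 0.31), beside 16.2% and 11.5% of all genes. The medians of the t3 arrays were 0.25, 0.30 and 0.31. Testing against a change of 1.5-fold gave 4 rises and 4 falls. *Orc1*, of the origin recognition complex, had 9.97, 9.91 and 9.96 at t3, against 8.52, 8.65, 8.58 and 8.54 at t2 (change 1.37 ± 0.10), and *Cdc45*, *Mcm3*, *Mcm10*, *Mcm2*, *Mcm5* and *RnrL* changed by 1.07 ± 0.13, 0.98 ± 0.10, 0.85 ± 0.12, 0.68 ± 0.11, 0.62 ± 0.13 and 0.95 ± 0.09. Of the origin recognition and MCM genes, *Orc2*, *Orc4*, *dpa* (Mcm4) and *Mcm6* changed by 0.43, -0.38, 0.33 and 0.43 and did not pass, and *Orc5* fell by 0.69 ± 0.13 (short of 1.5-fold without t3 replicate 1, at -0.56). The rise of *Mcm5* was short of 1.5-fold without t2 replicate 3 (0.57) or t3 replicate 2 (0.56). Those that fell include all 4 subunits of GINS, the partner complex of the MCM helicase. *Psf1* had 6.84, 7.15 and 6.91 at t3, against 8.43, 8.59, 8.67 and 8.55 at t2 (change -1.59 ± 0.10, adjusted p = 2.69e-14), and *Psf2*, *Psf3* and *Sld5* changed by -1.25 ± 0.11, -0.75 ± 0.11 and -1.04 ± 0.10. *PCNA*, the sliding clamp, and *RPA2* changed by -0.72 ± 0.11 and -1.15 ± 0.13. Most of these genes had been higher at t1: 18 of 23 were lower at t2 than at t1, and the means of *Mcm3* were 10.90, 9.77 and 10.75 at t1, t2 and t3. Of 19 cell cycle regulators, 3 rose and 5 fell, 15.8% and 26.3%, so that the share that rose was near the 16.2% of all genes, and the list's median per array overlapped between the stages. *fzr*, *Cdk4* and *CycD* rose by 0.92 ± 0.07, 0.86 ± 0.09 and 0.70 ± 0.09. The mitotic genes *aurB* and *pim* (securin) fell by 1.53 ± 0.13 and 1.34 ± 0.12, and *Cdk2* and *rux* by 1.23 ± 0.12 and 1.15 ± 0.10, while *CycE* and *CycB* stood at 10.51 ± 0.04 at t3 and 10.45 ± 0.09 at t2 and 12.47 ± 0.21 at t3 and 12.47 ± 0.06 at t2.

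To ask which of these changes differed between the sorted fractions, the change in GFP- cells was set against that in GFP+ cells. In GFP+ cells 2055 genes rose and 1544 fell from t2 to t3 (29.9% of all genes passed either way). The median change in GFP+ cells was -1.14 for the *ato*-lineage markers and 0.79 for the early mesoderm regulators. Whether the share of other cells among GFP+ cells differed between t2 and t3 was not tested. A difference of changes can therefore come from the make-up of either fraction. The difference passed for 289 genes in which the GFP- change was the higher and 387 in which it was the lower, 2.41% and 3.23% of all genes (5.64% either way). With values centred on ribosomal protein genes these counts were 368 and 323, and without t3 GFP- replicate 3 they were 434 and 361. The large changes given above for Notch targets were not among them: none of the 13 E(spl) and Brd complex genes passed this test, nor did any of the 21 septate junction genes, and 1 of 19 chitin genes did, *dy* (difference 0.74 ± 0.15), a gene of the apical matrix. By sign, 11 of the 13 E(spl) and Brd complex genes had the lower change in GFP- cells. Their median change was -2.23 there and -1.93 in GFP+ cells. For *E(spl)m5-HLH* the change was -4.76 in GFP- cells and -4.12 in GFP+ cells (difference -0.64 ± 0.28, SE), and for *obst-A* it was 5.68 and 5.28 (difference 0.39 ± 0.65).

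**Figure D5:**
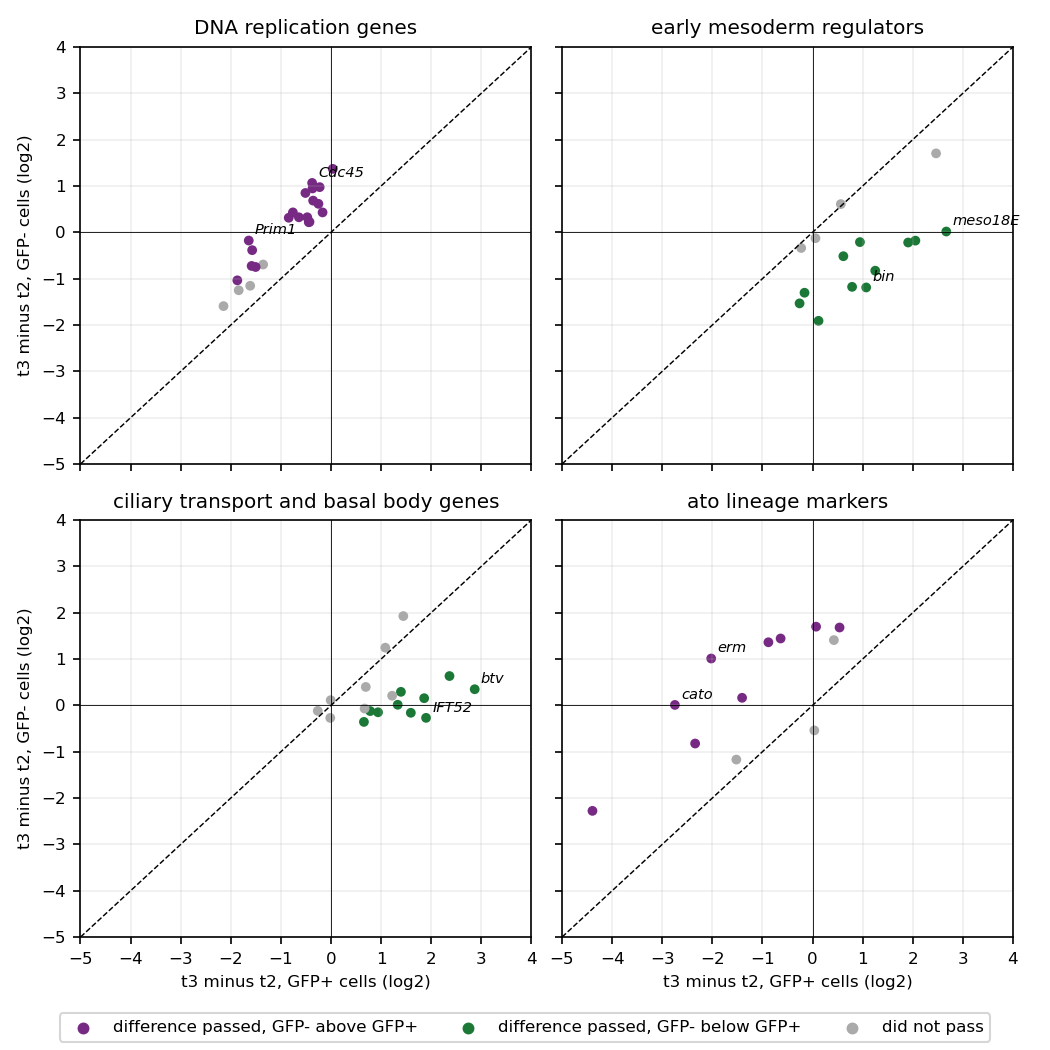
Change from t2 to t3 in GFP- cells (y axis, log2) against that in GFP+ cells (x axis, log2) for the members of 4 lists; the dashed line marks equal change. All 23 DNA replication genes lie above the line and 14 of 15 early mesoderm regulators below it, and the ciliary genes that differ lie below the line, with little change in GFP- cells.

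The list with the highest share of genes that differed was DNA replication. In 19 of 23 genes the change was higher in GFP- cells by the test (2.41% of all genes), and the values of the other 4 lay on the same side. *Orc1* changed by 1.37 in GFP- cells and 0.04 in GFP+ cells (difference 1.33 ± 0.14, adjusted p = 4.20e-08), *Cdc45* by 1.07 and -0.38, *RnrL* by 0.95 and -0.37, and *PCNA* by -0.72 and -1.58. The cell cycle gene *CycE*, which drives entry into S phase, changed by 0.06 and -1.04 (difference 1.10 ± 0.19). Ribosomal protein genes, by comparison, had median changes of 0.00 in GFP- and 0.03 in GFP+ cells.

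The early mesoderm regulators and myoblast fusion genes lay on the other side. In 11 of 15 early mesoderm regulators the change was lower in GFP- cells and in none higher (3.23% and 2.41% of all genes). *twi* changed by -1.18 in GFP- cells and 0.79 in GFP+ cells (difference -1.97 ± 0.26), *bin* by -1.19 and 1.07, *nau* by -0.83 and 1.25, and *Him* by -1.91 and 0.12. The t2 level of *twi* was nonetheless the stronger in GFP- cells, where it averaged 9.68, against 6.60 in GFP+ cells. *sls* and *rols* rose in GFP- cells but by less than in GFP+ cells (differences -2.04 ± 0.24 and -1.27 ± 0.24). Of the 13 myoblast fusion genes, *rols* among them, 5 were lower by the test and none higher. The other mesoderm lists were mixed. Of 21 muscle contractile genes, *sls* among them, 3 were lower and 1 higher by the test, but by sign 7 were lower and 14 higher. Of 18 visceral mesoderm and heart genes, 7 were lower and 2 higher by the test, and 10 and 8 by sign. At t3 the GFP- mean of *sls* was 10.24 and its GFP+ mean 9.42. For *twi* the t3 arrays had an SD of 0.17 in GFP- cells and 0.59 in GFP+ cells.

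Of 18 ciliary transport and basal body genes, 2 rose in GFP- cells, *Root* (Rootletin) with 7.33, 7.37 and 7.34 at t3, against 5.33, 5.48, 5.62 and 5.23 at t2 and the kinesin gene *Klp68D* (1.25 ± 0.16), and none fell. In 10 of the 18 the change was lower than in GFP+ cells (3.23% of all genes). The median of the list was 1.15 in GFP+ cells and 0.06 in GFP- cells. The genes that differed most between the cell classes in this direction were *tipE*, a sodium channel subunit, with a change of 0.19 in GFP- cells and 3.46 in GFP+ cells, *CG34297* (0.33 and 3.58), *CG7763* (-2.12 and 0.97), *CG3597* (-3.37 and -0.43), *dmrt11E* (-3.63 and -0.73) and *CG3085* (-0.27 and 2.63). Only *CG7763*, *CG3597* and *dmrt11E* among them fell in GFP- cells, and in GFP+ cells of t3 and t2 the means were 4.29 and 4.72 for *CG3597*, near the bottom of the scale, and 4.76 and 5.49 for *dmrt11E*, which fell there too.

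In the opposite direction the list of 12 *ato*-lineage markers held 9 genes whose signed change was the higher one in GFP- cells by the test and none whose change was the lower (2.41% and 3.23% of all genes). Since the test is of signed changes, a smaller fall in GFP- cells counts as the higher change. *erm* rose by 1.01 in GFP- cells and changed by -2.02 in GFP+ cells (difference 3.03 ± 0.19, adjusted p = 3.99e-12), *cato* changed by 0.01 and -2.75, *dac* by 1.36 and -0.88, and *ato* by -2.28 and -4.39. These markers were listed as genes high in the GFP+ cells of these same embryos, so the list is not independent of the direction of this difference. Among the genes with the highest difference, *Pex7*, the peroxisomal import receptor, had 7.79, 7.94 and 7.44 at t3, against 4.87, 5.06, 5.09 and 5.04 at t2, a rise that brought it to 7.72 in GFP- cells, against 8.37 and 8.42 in GFP+ cells of t3 and t2. *CG9095* likewise had 8.85, 8.20 and 7.44 at t3, against 5.37, 5.31, 5.39 and 5.39 at t2. The proneural genes *sc* and *ac* fell further in GFP- than in GFP+ cells (differences -1.49 ± 0.22 and -1.40 ± 0.23), and of the ecdysone enzymes *phtm* and *sad* fell less (1.91 ± 0.20 and 0.79 ± 0.13).

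The step from t2 to t3 also differed from the one before it. From t1 to t2, 657 genes rose and 1452 fell in GFP- cells (5.48% and 12.1%), fewer rises than in the later step. The change was higher in the later step for 2632 genes and lower for 2036, 22% and 17% of all genes (38.6% either way). Centred on ribosomal protein genes, the counts were 3240 and 1304. Since both steps share the t2 arrays, a gene that dips at t2 enters as higher and one that peaks there as lower. *net*, a bHLH transcription factor gene, had t1, t2 and t3 means of 5.74, 3.58 and 7.07, and *AhcyL1* had 8.49, 5.55 and 8.01, so both means were lower at t2 than at t1 before they rose. *Kr-h1*, *vari* and *Prps*, with t1 means of 3.65, 5.54 and 5.09, rose only in the later step. *Glut4EF* peaked at t2, with 6.90, 9.99 and 7.54, at its main probe set, which changed by -2.45 from t2 to t3. Its other probe sets changed the opposite way, by 0.16 to 0.93. The one at 0.93 passed, so this gene is counted both as a rise and as a fall. *CG13454*, *Brd* and *CG3597* stood high at t1 and t2 (9.07, 11.31 and 7.36 at t1) and fell only afterwards.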

How the data were processed

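Cells of dissociated embryos were sorted by GFP, and their RNA was amplified, labelled and hybridised to Affymetrix Drosophila Genome 2.0 arrays. The deposited values are log2 intensities that the authors computed by RMA, which subtracts background, quantile-normalises the arrays and summarises probes, 1 per probe set, so differences between arrays are relative to a common distribution. Of 18952 probe sets, 183 controls were left out and 18769 were tested. The platform's table names 1 gene for 13647 of them, several for 402 and none for 4720. Arrays have no read depth, and their number, 3 at t3 and 4 at t2, limits the precision.

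Group means of all 31 arrays (8 groups) were fitted with limma 3.58.1 in R 4.3.3, with p-values adjusted by Benjamini-Hochberg over all probe sets. The change in GFP- cells, its difference from that in GFP+ cells and its difference from the change between t1 and t2 were contrasts of this fit. A call needed 1.5-fold and an adjusted p of at most 0.01, and the fitting steps were tested on simulated data. Genes named are the 15 largest rises and falls, the 6 largest differences each way in the other contrasts, and members of 38 gene lists, of whose 750 entries 603 were measured. Members and lists were chosen with earlier results of these data known. The methods call the samples independent without saying whether each came from its own embryo collection, so p-values measure only the spread between arrays. Alternatives covered scaling, filters, thresholds, variance models and leaving out single arrays.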

Additional observations from a re-analysis of the deposited data

Results flagged for a closer look

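In 12 of the 248 genes the text gives values for, 1 of the 4 t2 GFP- arrays stood apart from the other 3, at about the share of groups, 5%, that chance would set apart. In replicate 1, *Mlc1* was 4.56 (the nearest other array 4.11), *ind* was 7.50 (the nearest other array 7.76) and *ple* was 3.29 (the nearest other array 3.07). In replicate 2, *CG7763* was 9.99 (the nearest other array 9.45), *ImpE1* was 5.96 (the nearest other array 6.22), *br* was 4.12 (the nearest other array 3.91) and *svp* was 9.31 (the nearest other array 9.11). In replicate 3, *bnl* was 9.30 (the nearest other array 9.38), *jhamt* was 3.88 (the nearest other array 4.27), *slp2* was 9.31 (the nearest other array 9.52) and *vari* was 5.30 (the nearest other array 4.74). In replicate 4, *LanB2* was 11.79 (the nearest other array 11.90).

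The change from t2 to t3 differed between GFP- and GFP+ cells in 70 of these genes by the limma test of that difference. Over all genes the share was 5.64%. The genes with values in the text include those named for the largest differences by this test. They also include list members chosen with earlier results of these data known, so the 2 shares are not of like sets. Each value is the GFP- change minus the GFP+ change, on the log2 scale. Higher in GFP- cells were, of *ato*-lineage markers, *ato* (2.12), *cato* (2.76), *dac* (2.24), *erm* (3.03), *cpo* (1.63), *ss* (2.08), *B-H1* (1.14), *sens* (1.57) and *nvy* (1.52). The higher genes of DNA replication and the cell cycle were *Orc1* (1.33), *Cdc45* (1.44), *Mcm10* (1.36), *Mcm2* (1.04), *Mcm3* (1.20), *Mcm5* (0.87), *Mcm6* (0.60), *dpa* (0.80), *Orc2* (1.19), *Orc4* (1.19), *RnrL* (1.32), *PCNA* (0.86), *Psf3* (0.76), *Sld5* (0.83) and *CycE* (1.10). The higher genes of signalling and the nervous system were *spdo* (1.08), *dpn* (0.95), *svp* (1.67), *net* (0.90), *tll* (1.25), *tok* (1.39) and *aos* (0.81). The higher genes of hormone synthesis were *phtm* (1.91), *sad* (0.79) and *shd* (1.12). Other higher genes were *CG9095* (2.17), *Pex7* (2.76), *Pgk* (0.61), *dy* (0.74), *gt* (1.87) and *halo* (1.41).

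Lower in GFP- cells were, of mesoderm and muscle, *twi* (-1.97), *bin* (-2.26), *bap* (-1.27), *Six4* (-1.14), *nau* (-2.08), *Him* (-2.03), *jeb* (-1.63), *sls* (-2.04) and *rols* (-1.27). The lower genes of blood and matrix were *srp* (-2.15), *gcm* (-1.82), *Pvr* (-1.17), *Pxn* (-0.98), *Sr-CI* (-1.39), *Plod* (-0.98) and *Ppn* (-2.82). The lower of the proneural and neural genes were *ac* (-1.40), *l(1)sc* (-0.99), *sc* (-1.49), *beat-Ia* (-1.13) and *tipE* (-3.26). Other lower genes were *CG3085* (-2.90), *CG34297* (-3.24), *CG3597* (-2.94), *CG7763* (-3.09), *dmrt11E* (-2.90), *hkb* (-1.61), *btl* (-1.34), *Hsp68* (-1.10) and *ImpE3* (-0.66).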

How the results depend on the processing

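Among the named genes that were followed, no main probe set with a call turned its direction under any alternative tried. Alternatives that changed only a threshold could not turn it. Other called genes and other probe sets were not followed in this way. Testing against a change of 1.5-fold, in place of testing against 0 with a fold limit, gave 1093 higher and 654 lower genes at t3 in GFP- cells (1944 and 1381 otherwise), 120 and 46 entries of the gene lists, 36 and 119 genes in the difference from GFP+ cells, and 1441 and 823 in the difference between the steps. Without a fold limit, 2866 genes were lower at t3. The genes with the higher change in GFP- than in GFP+ cells numbered 289, against 180 when only those groups were fitted and 462 with array weights. Centring on ribosomal protein genes gave 1304 genes with the lower change in the later step, moved the share of higher calls there to 71.3%, against 56.4%, and moved that share in the difference from GFP+ cells to 53.3%, against 42.8%. It shifted the median change of all genes to -0.00 and cyclic loess to 0.02, against -0.09. The medians of the Hox, Notch core and JAK/STAT lists changed sign with the scaling.

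Leaving out 1 array at a time gave 1851 to 2033 higher and 1327 to 1455 lower genes at t3, and 176 to 194 higher and 88 to 102 lower list entries. It gave 208 to 434 higher and 343 to 479 lower genes in the difference from GFP+ cells, with 434 reached without t3 GFP- replicate 3. In the difference between the steps it gave 2464 to 2703 and 1894 to 2082 genes. With the replicate number as a block in the 7 arrays, 1926 genes were higher and 1365 lower; same-numbered t3 and t2 arrays did not deviate together (r = -0.01, 0.01 and -0.02), so the numbers do not pair them. A random block for the sort run gave 1939 and 1380. For the difference from GFP+ cells that block gave 344 higher and 441 lower genes, against 289 and 387. Deviations of same-numbered GFP- and GFP+ arrays of t3 had r of 0.56, 0.04 and 0.23 in replicates 1, 2 and 3. At t2 these r lay between -0.02 and 0.06. Of the values for single genes under all alternatives, 5415 kept their side of the threshold, 76 lost the call and 29 gained it. The arrays compared number 7, and genes near the bottom of the scale have compressed changes.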

Other observations

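Among the 28 genes with a mean under 5 at t2 and above 8 at t3, 15 belong neither to the gene lists nor to the largest rises. *Alp1*, an alkaline phosphatase gene, had 9.94, 9.37 and 8.20 at t3, against 5.00, 4.92, 4.98 and 4.82 at t2 (change 4.24 ± 0.50, SE). *glob1*, a globin gene, had 8.58, 8.75 and 7.50 at t3, against 4.93, 4.89, 4.72 and 4.99 at t2, *Itgbn*, an integrin subunit gene, 8.77, 8.33 and 7.62 at t3, against 4.52, 4.85, 4.69 and 4.82 at t2, and *ken*, a transcriptional repressor gene, 8.68, 8.32 and 7.66 at t3, against 4.96, 5.14, 4.75 and 5.13 at t2. In each of these all t3 arrays lay above all t2 arrays, and their t1 means were 5.32, 5.64, 4.62 and 4.52. *PKD*, a protein kinase gene, changed by 3.44 ± 0.27 and *tx*, a bHLH transcription factor gene, by 3.90 ± 0.19. These genes were chosen by their values at both stages, so the changes are descriptions.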
